A study of Mus musculus with 2 samples.

Results

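The genes described here are 36 immediate early and heat shock genes, picked by name from the 32285 genes of the deposited tables, and all 36 were found. They fall into 12 early response transcription factors, 13 early response regulators and feedback genes, and 11 heat shock genes. They were measured by droplet single-cell RNA-seq, in which each RNA molecule caught at its 3′ end is counted once through a molecular barcode (UMI). The cells were sorted as immune cells, straight after dissection, from MC38 tumours on day 21, and MC38 is a mouse colon carcinoma line that grows under the skin of mice. There is 1 group of 2 replicate libraries with no treated or untreated counterpart, and the sources used here give no genotype, strain or host age. The deposited names of the libraries differ by a word that the labels do not explain, and this word was not used. The comparisons are therefore between cell classes of the same libraries and, as a description, between the libraries.

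Immediate early genes are switched on within minutes of a growth factor, cytokine or stress signal, without new protein synthesis. Signals through MAP kinases act on factors such as SRF and CREB, which start transcription of Fos, Jun and Egr genes, and the same signals induce their own brakes, such as the phosphatase gene Dusp1 and Zfp36, whose protein destabilises short-lived mRNAs. Heat shock genes encode chaperones that hold or refold other proteins. Some, such as Hsp90ab1 and Hspa8, are made constantly in growing cells, while Hspa1a and Hspa1b are made mainly after heat shock factor 1 has bound their promoters. Both sets are also known to respond to the handling of tissue, which makes them a common concern in single-cell studies of tumours.

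The regulatory stretches of some genes that carried the main difference show how the inducible members are built. The sequences are the 250 bases before the RefSeq transcript start (build GRCm38.p6, which is mm10), read 5′ to 3′ on the strand of the gene. Of the 36 genes 30 had an entry, and Egr1, Ier2, Nfkbiz, Hspa8, Hsp90aa1 and Hsp90ab1 had none. In the windows of Hspa1a, Hspa1b and Hspe1, capitals mark facing or back-to-back pairs of the heat shock element unit, spelled GAANNTTC or TTCNNGAA; each reads the same on both strands.
Hspa1a (chr17:34972157-34972406, minus strand): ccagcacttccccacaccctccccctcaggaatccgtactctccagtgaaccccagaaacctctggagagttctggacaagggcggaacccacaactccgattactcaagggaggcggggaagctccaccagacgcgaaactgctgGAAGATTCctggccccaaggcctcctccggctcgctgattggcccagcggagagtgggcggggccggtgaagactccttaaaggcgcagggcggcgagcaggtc
Hspa1b (chr17:34959239-34959488, minus strand): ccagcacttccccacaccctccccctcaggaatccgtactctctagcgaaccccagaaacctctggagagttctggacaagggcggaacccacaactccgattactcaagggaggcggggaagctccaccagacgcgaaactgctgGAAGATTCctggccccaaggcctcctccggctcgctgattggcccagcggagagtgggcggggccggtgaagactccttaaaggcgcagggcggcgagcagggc
Hspe1 (chr1:55087898-55088147, plus strand): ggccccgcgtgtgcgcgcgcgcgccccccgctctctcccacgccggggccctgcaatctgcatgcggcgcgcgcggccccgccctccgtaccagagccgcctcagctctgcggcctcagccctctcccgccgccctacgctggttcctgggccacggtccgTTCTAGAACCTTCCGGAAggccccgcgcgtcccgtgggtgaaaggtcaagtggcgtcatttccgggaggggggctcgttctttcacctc
Such a pair occurred in 6 of the 8 heat shock genes with an entry (Hspa1a, Hspa1b, Hspe1, Hsph1, Hspb1 and Dnaja1), in 3 of the 11 transcription factor genes (Jun, Fosl2 and Egr2) and in 12.8% of all 32851 windows. The windows of Hspa1a and Hspa1b, near-identical neighbours on chromosome 17, differ at 3 bases, and reads can be split between the transcripts, so their separate counts are uncertain. In the windows of Dusp1 and Btg2, capitals mark the cyclic AMP response element TGACGTCA, which is its own reverse complement, and in the window of Fos the part TGACGT of that element.
Dusp1 (chr17:26508473-26508722, minus strand): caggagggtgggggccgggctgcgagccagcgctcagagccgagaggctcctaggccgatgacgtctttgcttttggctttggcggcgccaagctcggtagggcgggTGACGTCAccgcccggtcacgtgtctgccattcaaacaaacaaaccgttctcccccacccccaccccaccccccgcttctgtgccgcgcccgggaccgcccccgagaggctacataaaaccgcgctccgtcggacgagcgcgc
Btg2 (chr1:134079156-134079405, minus strand): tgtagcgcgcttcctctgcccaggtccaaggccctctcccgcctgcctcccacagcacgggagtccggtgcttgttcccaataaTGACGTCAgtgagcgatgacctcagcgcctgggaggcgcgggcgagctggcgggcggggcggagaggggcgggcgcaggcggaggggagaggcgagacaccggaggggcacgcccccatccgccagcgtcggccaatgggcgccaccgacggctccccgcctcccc
Fos (chr12:85473640-85473889, plus strand): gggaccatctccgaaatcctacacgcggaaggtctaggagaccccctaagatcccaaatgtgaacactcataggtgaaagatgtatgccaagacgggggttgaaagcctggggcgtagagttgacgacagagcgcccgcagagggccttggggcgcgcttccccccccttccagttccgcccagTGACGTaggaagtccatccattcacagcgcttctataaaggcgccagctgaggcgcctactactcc
The full element occurred in 2 of the 30 genes, Dusp1 and Btg2, and in 1.55% of all windows. The shorter TGACGT, searched on both strands and contained in the full element, occurred in 8 of the 30 (Fos, Atf3, Egr2, Dusp1, Dusp5, Btg1, Btg2 and Hspa5) and in 6.47% of all windows. The CArG box, the binding motif of SRF, occurred in Zfp36, Dusp5 and Egr2 and in 1.47% of all windows. Egr1 had no entry, and a box further than 250 bases before the start, in Fos or any other gene, was not searched for. These are matches of letters and no measure of binding.

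Replicate 1 held 5688000 UMIs and replicate 2 held 5862342, and 2378 and 2801 cells were kept. No cell barcode was shared between the libraries. Among C1q-positive cells, Xist had 1256 UMIs in replicate 1 and 0 in replicate 2, while 4 genes of the Y chromosome had 0 and 140, which shows different animals behind the libraries. Cells were clustered without the 36 genes and named from markers. Ptprc-negative cells (626 and 927), C1q-positive cells (1160 and 914) and CD3 T cell-like cells (64 and 331) were the most numerous classes. Neutrophil-like cells (26 and 165), monocyte-like cells (36 and 25), type 2 dendritic-like cells (105 and 42), mature dendritic-like cells (27 and 27) and plasmacytoid dendritic-like cells (27 and 22) entered the fit as well. Type 1 dendritic-like cells (104 and 6) were too few in replicate 2. The Ptprc-negative cells lack RNA of the leukocyte genes Ptprc and Tyrobp by selection, although the sort was for immune cells. Keratin, Epcam and other epithelial markers summed to 0 and 1.42 UMIs per 1000000 (CPM) in them and fibroblast markers to 1429 and 898 CPM. The data thus do not show them to be epithelial tumour cells, and they are named here by their missing leukocyte RNA. Averaged over cells, fibroblast markers stood at 4.5 to 35.24 per 10000 UMIs in the clusters that held them. They stood at 450.71 in a cluster led by Col1a1 (2 and 40 cells), which is in none of the classes. Most C1q-positive cells of replicate 2 (806 of 914) belonged to a cluster led by Ly6i. Its 10 leading genes held 1 neutrophil marker, Il1r2, and no macrophage marker. Per 10000 UMIs, neutrophil markers stood at 4.31 in it, against 131.09 in the neutrophil-like cluster. Macrophage markers stood at 121.6 in it, at 331.67 in the cluster led by Fcrls and at 107.54 in the neutrophil-like cluster. The C1q-positive class was given no cell type name, and results against it are also given without the Ly6i cluster. C1q RNA stood at 72.2% and 71.8% of its level in C1q-positive cells in neutrophil-like cells and at 72.8% and 72.9% in mature dendritic-like cells. It stood at 25.4% and 59.9% in CD3 T cell-like, at 34.5% and 50.4% in plasmacytoid and at 6.31% and 33.3% in type 2 dendritic-like cells, at 4.73% and 8.60% in monocyte-like cells and at 0.736% and 0.708% in Ptprc-negative cells. Its part in the comparisons among leukocyte classes was not tested beyond the values given below. The labels number the replicates and say no more of their independence, so the p-values rest on the spread of class differences over both libraries.

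Of the 36 genes, 30 had enough UMIs to be tested (Fosl2, Egr2, Dusp2, Hspb1, Dnajb1 and Hsph1 had not), and 24 of the 30 differed between the 8 classes in edgeR's quasi-likelihood F test at an adjusted p under 0.05. Of all 1679 genes tested, 56% did. The 24 were 8 of 10 transcription factors, 11 of 12 regulators and 5 of 8 heat shock genes. Without the library block 13 genes were called.

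**Figure D1:**
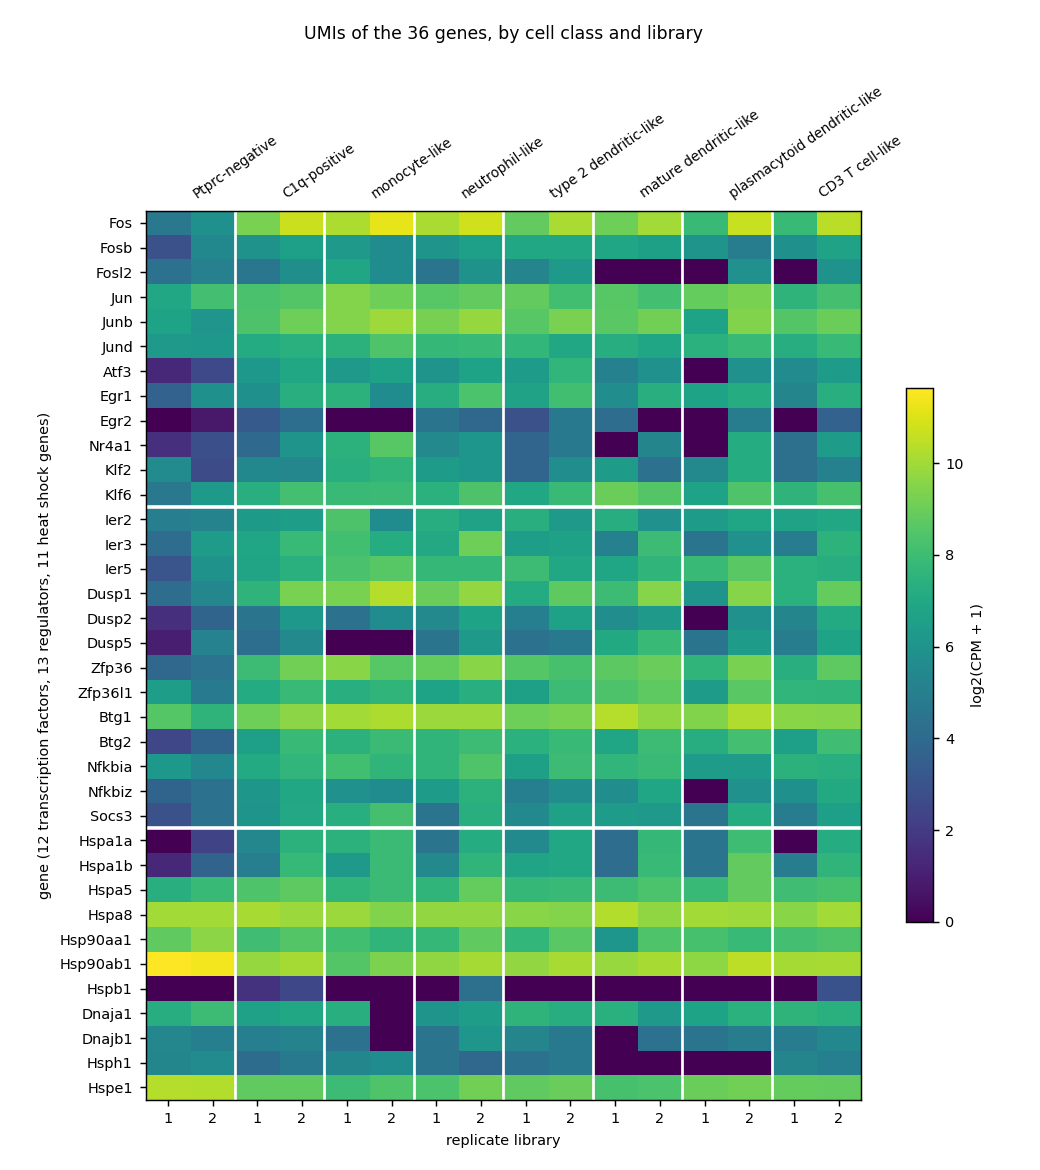
Level of each of the 36 genes (rows) as log2(CPM + 1) in 8 cell classes, 1 column per replicate library. White lines separate the classes and the 3 groups of genes; the Ptprc-negative columns are darker than the others for Fos, Dusp1, Zfp36 and Btg2 and brighter for Hsp90ab1 and Hspe1.

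The largest contrast lay between Ptprc-negative cells and the leukocyte classes, where early response genes were lower and most heat shock genes higher in Ptprc-negative cells. Relative to the mean of the 7 leukocyte classes, 9 of the 10 tested transcription factors and 11 of the 12 tested regulators were lower in Ptprc-negative cells and none was higher. Of the 8 tested heat shock genes 5 were higher and 2, Hspa1a and Hspa1b, were lower. Over all genes tested, 34.9% were higher and 31.6% lower. The median log2 fold change was -2.04 for the transcription factors, -1.69 for the regulators and 0.68 for the heat shock genes, beside 0.11 over all genes tested. Scaling without TMM moved that last median to -0.12, and the direction of each called gene stayed. These p-values come from sums of cells that differ in many ways, and fewer expressing cells cannot be told apart from less RNA per cell.

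Fos, which encodes a subunit of the AP-1 transcription factor, stood at 23.9 CPM in replicate 1 and 55.5 CPM in replicate 2 of the Ptprc-negative cells. In the 14 leukocyte sums it ran from 226 CPM to 2311 CPM, with a median of 1139 CPM. No leukocyte sum reached down to the Ptprc-negative level, and the log2 fold change was -4.41 (SE 0.39, edgeR adjusted p = 9.53e-09). Junb and Jun, which encode partners of Fos in AP-1, were less separated. Junb stood at 108 and 65.1 CPM against 107 to 983 CPM in leukocytes (median 557), and fell by 2.23 on the log2 scale. Jun stood at 121 and 284 CPM against 188 to 719 CPM (median 387), so the sums overlapped, and its log2 fold change was -0.78 (SE 0.27, edgeR adjusted p = 0.0167). Atf3, a stress-induced repressor gene, stood at 1.49 and 4.98 CPM against 0 to 202 CPM (median 75.7) and fell by 4.11, with overlapping sums. Nr4a1 encodes an orphan nuclear receptor induced by antigen receptor and growth signals. It stood at 1.99 and 6.04 CPM against 0 to 393 CPM (median 40.7) and fell by 3.31, again with overlapping sums. Klf6, Egr1, Fosb and Jund fell by 2.16, 1.91, 1.66 and 1.06. Klf2, a factor of quiescent lymphocytes and endothelium, was not called at a log2 difference of -0.94 (edgeR adjusted p = 0.186). It stood at 48.3 CPM in replicate 1 of the Ptprc-negative cells and at 5.33 CPM in replicate 2.

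Among the regulators, Zfp36 stood at 14.4 and 20.3 CPM in Ptprc-negative cells and between 160 and 758 CPM in the leukocyte sums (median 425). Both libraries thus lay below every leukocyte sum, with a log2 difference of -4.39 (edgeR SE 0.41, adjusted p = 2.42e-08). Btg2, which encodes an antiproliferative adaptor of mRNA deadenylation, stood at 4.48 and 12.4 CPM against 92.5 to 288 CPM (median 211), a log2 difference of -4.28 (edgeR SE 0.35, adjusted p = 4.39e-09). Dusp1, the MAP kinase phosphatase gene with the full cyclic AMP element shown above, stood at 16.9 and 41.2 CPM against 64.2 to 1279 CPM (median 479), a log2 difference of -3.67 (edgeR SE 0.34, adjusted p = 2.13e-08). Socs3, a feedback inhibitor of cytokine receptors, and Ier5 fell by 2.62 and 2.48. Btg1, the regulator with the most UMIs per class, stood at 373 and 188 CPM against 527 to 1309 CPM and fell by 1.31. Nfkbiz, Ier2, Zfp36l1, Ier3 and Nfkbia, the last the gene of the NF-kB inhibitor IkB-alpha, fell by between 1.33 and 1.81. Dusp5 had too wide an error for a fold change, with 0.995 and 34.5 CPM in the Ptprc-negative cells and 0 UMIs in both monocyte sums.

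Hsp90ab1, the gene of the constitutive cytosolic HSP90 (chr17:45567775-45573271, minus strand, mm10), stood at 3165 and 2729 CPM in Ptprc-negative cells. In leukocyte sums it ran from 369 CPM to 1411 CPM with a median of 986 CPM, so the groups did not overlap, and the log2 fold change was 1.99 (SE 0.16, edgeR adjusted p = 3.38e-09). Hspe1, which encodes the small mitochondrial co-chaperonin, stood at 1279 and 1267 CPM against 253 to 576 CPM (median 446), a log2 difference of 1.87 (edgeR SE 0.16, adjusted p = 7.61e-09). Hsp90aa1, the more inducible HSP90 gene, stood at 446 and 772 CPM against 67.1 to 438 CPM and was higher by 1.36. Dnaja1, a co-chaperone gene of HSP70, was higher by 0.91 with overlapping sums. Its log2 ratio was 0.22 in replicate 1 and 1.99 in replicate 2, where monocyte-like cells had no Dnaja1 UMI. Hspa8, the constitutive HSP70 gene, was nearly level, at 1032 and 1028 CPM against a median of 895 CPM. Its log2 difference of 0.45 (SE 0.17, edgeR adjusted p = 0.0267) was not called without TMM (edgeR adjusted p = 0.325), and neither was that of Dnaja1 (edgeR adjusted p = 0.0502). Hsp90aa1, Dnaja1 and Hspa8 are named here after their values were seen or for their abundance. Hspa5, the HSP70 of the endoplasmic reticulum, was not called, at 159 and 233 CPM against a median of 258 CPM (log2 fold change -0.33, edgeR adjusted p = 0.193). Constitutive chaperone genes have many processed copies in the genome, so how their reads were assigned could affect these levels.

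The inducible pair was at very low levels in Ptprc-negative cells. Hspa1a had 0 UMIs in the Ptprc-negative cells of replicate 1, where 3 UMIs would be 1.49 CPM. It stood at 4.27 CPM in replicate 2, against 0 to 259 CPM in the leukocyte sums (median 137), so the sums overlapped. Hspa1b stood at 1.49 and 12.1 CPM against 16.8 to 461 CPM (median 117) and did not overlap. Their log2 fold changes were -5.44 (SE 0.65, edgeR adjusted p = 6.52e-07) and -4.16 (SE 0.51, edgeR adjusted p = 7.75e-07). Summed over the pair, Ptprc-negative cells stood at 1.49 and 16.4 CPM, and C1q-positive cells at 71.8 and 394 CPM. Hspe1, whose promoter also holds the heat shock element pair, went the other way.

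In CPM, both Ptprc-negative sums lay below all 14 leukocyte sums for 12 of the 30 tested genes, 11 of them early response genes, and above all for 3 heat shock genes. Over all genes tested, 15.9% lay below all and 12.4% above all. These counts were not taken after TMM, which gave the Ptprc-negative sums factors of 0.749 in replicate 1 and 1.01 in replicate 2. Genes close to the leukocyte range could overlap it on that scale. Each of the 27 called genes had the same direction in each library on its own, but sizes varied. The log2 ratio (of CPM + 1, without TMM) was -4.49 in replicate 1 and -1.80 in replicate 2 for Ier5, -3.38 and -0.85 for Fosb, -1.68 and -0.46 for Jun, and -0.73 and -3.12 for Zfp36l1. It was -2.78 and -1.47 for Egr1, -1.75 and -3.34 for Junb, -1.07 and -2.21 for Btg1, -1.07 and -2.19 for Nfkbia, -1.26 and -2.18 for Nfkbiz, -1.99 and -3.53 for Nr4a1 and 0.13 and 0.27 for Hspa8. With the Ly6i cluster left out of the C1q-positive class, 26 of the genes were called.

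**Figure D2:**
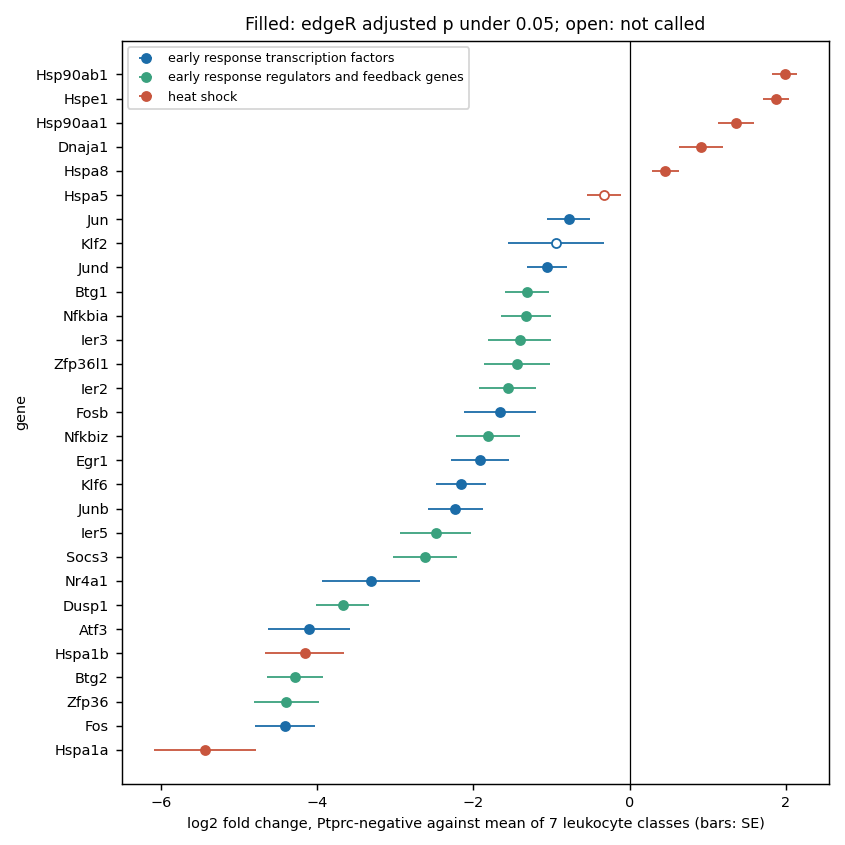
Log2 fold change of each tested gene in Ptprc-negative cells against the mean of 7 leukocyte classes, with its standard error; Dusp5, whose error is above the plotted range, is left out. Blue and green early response genes all lie left of 0, and red heat shock genes lie on both sides, from Hspa1a at -5.44 to Hsp90ab1 at 1.99.

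A wider list of 79 further genes, chosen by function, gave the surroundings of these pathways. Of 10 tested early response genes 7 were lower in Ptprc-negative cells and none higher, among them Pim1, a survival kinase gene (log2 fold change -5.15, 2.98 and 7.47 CPM), Rel (-2.80), Mcl1 (-2.42), the gene of an anti-apoptotic BCL-2 relative, and Gadd45b (-2.41). The list held 36 early response genes, so most had too few UMIs for a test. Without a test, Fosl1 stood at 62.2 and 102 CPM, above every leukocyte sum (highest 27.6 CPM). Dusp8, at 1.49 and 1.07 CPM, also lay above every leukocyte sum, and Bcl3 and Ppp1r15a lay below every one. Of 14 tested chaperone and co-chaperone genes 7 were higher and 2 lower. Beside both lists, 34.9% of all genes tested were higher and 31.6% lower. Hspd1, which encodes the partner of the Hspe1 protein in mitochondria, was higher by 2.27, at 240.3 and 287 CPM, and Cacybp by 1.88. Of the upstream factors 2 could be tested. Atf4, a factor of the integrated stress response, was higher by 0.80, and Xbp1, a factor of the unfolded protein response and of secretory cells, was lower by 1.61; both are named after their values were seen. Median log2 fold changes were -1.83 for the early response list and 0.62 for the chaperone list.

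The contrast was visible in the sums per cell as well. After each cell was thinned to 800 UMIs, Ptprc-negative cells held a median of 1 UMI of the 25 early response genes in both libraries, and C1q-positive cells 2 and 5. For the 11 heat shock genes the medians were 4 and 4 against 2 and 3. Most heat shock UMIs of Ptprc-negative cells came from Hsp90ab1, Hspe1 and Hspa8 (mean 2947, 1273 and 1030 CPM). The heat shock sum thus mainly follows these genes and hides the lower Hspa1a and Hspa1b. No early response UMI was left in 43.4% and 40.6% of Ptprc-negative cells and in 12.1% and 3.54% of C1q-positive cells. The mean early response sum of Ptprc-negative cells was 0.267 ± 0.103 times that of C1q-positive cells (SD, n = 2), and the mean heat shock sum was 1.66 ± 0.238 times. Thinning left out 48 and 47 Ptprc-negative and 266 and 180 C1q-positive cells, whose unthinned median depths were 2023 and 2261 UMIs against 1296 and 1142. Fos had a UMI in 1.90% and 4.43% of thinned Ptprc-negative cells, and in 36.2% and 63.9% of C1q-positive cells (unthinned 6.07% and 12.6% against 49.8% and 72.3%). C1q RNA, which Ptprc-negative cells should lack, had a UMI in 17.3% and 13.9% of unthinned Ptprc-negative cells. By level, the Ptprc-negative sums stood at 0.736% and 0.708% of the C1q-positive level for C1q RNA, and at 3.82% and 3.33% for Fos. Across cells that share library and depth, Spearman's rho between early and heat shock sums was -0.02 and -0.03 in C1q-positive cells. It was -0.11 and -0.01 in Ptprc-negative cells. With so few UMIs per cell, counting error alone pulls rho toward 0, so these values do not show the sums to be unrelated.

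**Figure D3:**
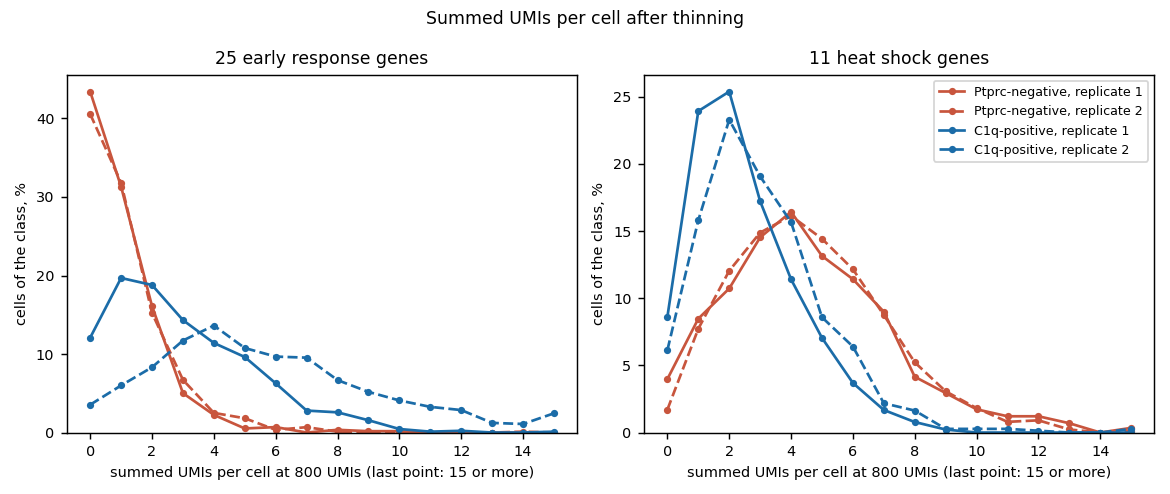
Share of cells (percent) by summed UMIs of the 25 early response genes (left) and the 11 heat shock genes (right) after thinning each cell to 800 UMIs, for Ptprc-negative and C1q-positive cells of each library. Early response sums of Ptprc-negative cells pile up at 0 and 1, and heat shock sums of these cells lie to the right of those of C1q-positive cells.

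The clusters of Ptprc-negative cells split by library. Replicate 1 held clusters led by Dcn and Rhox5 (435 cells) and by Shisal2b and Fry (190 cells). Replicate 2 held clusters led by Nefl and Crabp1 (581 cells), Nppb and Areg (189 cells) and Mgp and Sparcl1 (153 cells). Hsp90ab1 stood at 2776 and 3672 CPM in the clusters of replicate 1 and at 2917, 2317 and 2320.2 CPM in those of replicate 2, above the highest leukocyte sum in all 5. Fos ran from 11.4 to 74.2 CPM over the 5, below the lowest leukocyte sum. Ier3, a survival gene, reached 192 CPM in the Nppb and Areg cluster (interval 155 to 234) against 3.43 CPM (0.707 to 10.0) in the Shisal2b and Fry cluster. Klf2 stood at 64.4 and 27.4 CPM in the clusters of replicate 1 and between 4.15 and 7.95 CPM in those of replicate 2. Intervals are exact 95% Poisson intervals of the counts and cover counting error only, and cluster and library cannot be told apart.

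Among the leukocyte classes alone, few of the 36 genes differed beyond the spread between libraries. In an F test over the 7 leukocyte classes, added after the data were seen, Dusp1 was the 1 gene of 30 called (edgeR adjusted p = 0.0264), beside 9.65% of all genes tested. Nr4a1 just missed (edgeR adjusted p = 0.0510), and 7 of the 30 had an unadjusted p under 0.05. Without TMM, or without the Ly6i cluster, 2 genes were called, and none was with doublets kept, without the library block, with cells thinned or with the 36 genes allowed into the clustering. With UMI gates in place of clusters 19 were called, under a dendritic gate that took in many Ptprc-negative cells. The highest class by mean CPM was the same in both libraries for 15 of the 36 genes.

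Monocyte-like cells carried the highest mean level of 14 of the 36 genes, 7 of them transcription factors. Of the 14, Fos, Junb, Nr4a1, Klf2, Dusp1 and Socs3 were highest there in both libraries. The share of all genes highest in this class was not computed. At 19.4 and 49.2 CPM per UMI, a few UMIs can set a mean there. The class was named from Plac8, Chil3 and Hp, beside which the neutrophil marker Mmp8 was among its 10 leading genes. Behind these values stand 36 and 25 cells, with 51473 and 20337 UMIs. Nr4a1 (chr15:101254269-101274795, plus strand, mm10), which is known to be required for patrolling monocytes, stood at 175 CPM (interval 80.0 to 332) in replicate 1 and 393 CPM (170 to 775) in replicate 2. These are 9 and 8 UMIs, and C1q-positive cells stood at 14.7 and 63.9 CPM, so the classes did not overlap. The log2 fold change was 3.12 (SE 0.69, edgeR adjusted p = 0.0159). Nr4a1 was among the 10 leading genes of the monocyte cluster, although it took no part in the clustering. Dusp1 stood at 622 and 1279 CPM in monocyte-like against 187 and 621 CPM in C1q-positive cells, which nearly meet, with a log2 difference of 1.43 (edgeR SE 0.37, adjusted p = 0.0454). These 2 were the genes of 30 called, beside 2.56% of all genes tested, and 9 of the 30 had an unadjusted p under 0.05. Both calls were lost without the library block (edgeR adjusted p = 0.306 for Nr4a1 and 0.629 for Dusp1), with doublets kept (0.0609 and 0.532) and with UMI gates in place of clusters (0.166 and 0.808), and that of Dusp1 also without the filter on low counts (0.923), without TMM (0.0502) and with clusters alone (0.0787). Without the Ly6i cluster both were called (0.0106 and 0.0140). In replicate 1 alone the log2 ratio was 3.48 for Nr4a1 and 1.73 for Dusp1, and in replicate 2 alone 2.60 and 1.04. Fos stood at 1185 and 2311 CPM against 625 and 1668 CPM and was not called (log2 fold change 0.76, edgeR adjusted p = 0.372).

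Neutrophil-like cells held Ier3 at 129 CPM (47.4 to 281) in replicate 1 and 529.9 CPM (437 to 636) in replicate 2, against 113 and 230.5 CPM in C1q-positive cells. Fos stood at 1141 and 1765 CPM in them, Junb at 603 and 871 CPM and Zfp36 at 474 and 746 CPM, each above C1q-positive cells of the same library. The class was not alike in the libraries. Its neutrophil markers summed to 36893.5 CPM in replicate 1 and 7957 CPM in replicate 2, and its T cell markers to 151 and 931 CPM. The part of this in the values was not tested. None of the 30 genes passed edgeR's test against C1q-positive cells, nor that of DESeq2; 2, Dusp1 and Egr1, had an unadjusted p under 0.05, and 0.298% of all genes tested passed. The median log2 fold change of the 22 tested early response genes was 0.54, beside -0.05 over all genes.

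Between CD3 T cell-like and C1q-positive cells, none of the 30 genes passed in edgeR or DESeq2, beside 1.67% of all genes, and none had an unadjusted p under 0.05. Fos stood at 226 and 1377 CPM in them, Btg1 at 754 and 737 CPM, and Dusp2, a phosphatase gene of activated lymphocytes with too few UMIs to be tested, at 37.7 and 138 CPM against 21.2 and 72.4 CPM. In the 32 and 90 T cell-like cells without any C1q UMI, again none was called, and Fos had a log2 difference of -1.38 (edgeR adjusted p = 0.0923).

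Of the dendritic classes, mature dendritic-like cells had the highest level of Klf6, Dusp5 and Zfp36l1 among the 8 fitted classes in both libraries. Klf6, a zinc finger factor, stood at 520.3 CPM (354 to 739) and 365 CPM (219.7 to 569.9), against 157 and 288 CPM in C1q-positive cells. Dusp5, a phosphatase gene of the kinase ERK, stood at 134 CPM (58.0 to 265) and 230.5 CPM (119 to 403) against 17.5 and 43.6 CPM, from 8 and 12 UMIs. Fosb and Atf3 were highest in type 2 dendritic-like cells among those 8 classes, at 121 and 126 CPM and at 82.6 and 202 CPM. Plasmacytoid dendritic-like cells spread most between libraries, with Fos at 235 and 1613 CPM and Dusp1 at 64.2 and 719.9 CPM. Over the mean of the 3 dendritic classes in the fit, none of the 30 genes passed against C1q-positive cells in edgeR or DESeq2, beside 1.37% of all genes tested, and 2, Nfkbiz and Ier3, had an unadjusted p under 0.05. Single dendritic classes were not tested against the others. The 4 comparisons with C1q-positive cells share that class. Type 1 dendritic-like cells of replicate 1, outside the fit, held Fos at 747 CPM and Hsp90ab1 at 995 CPM.

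**Figure D4:**
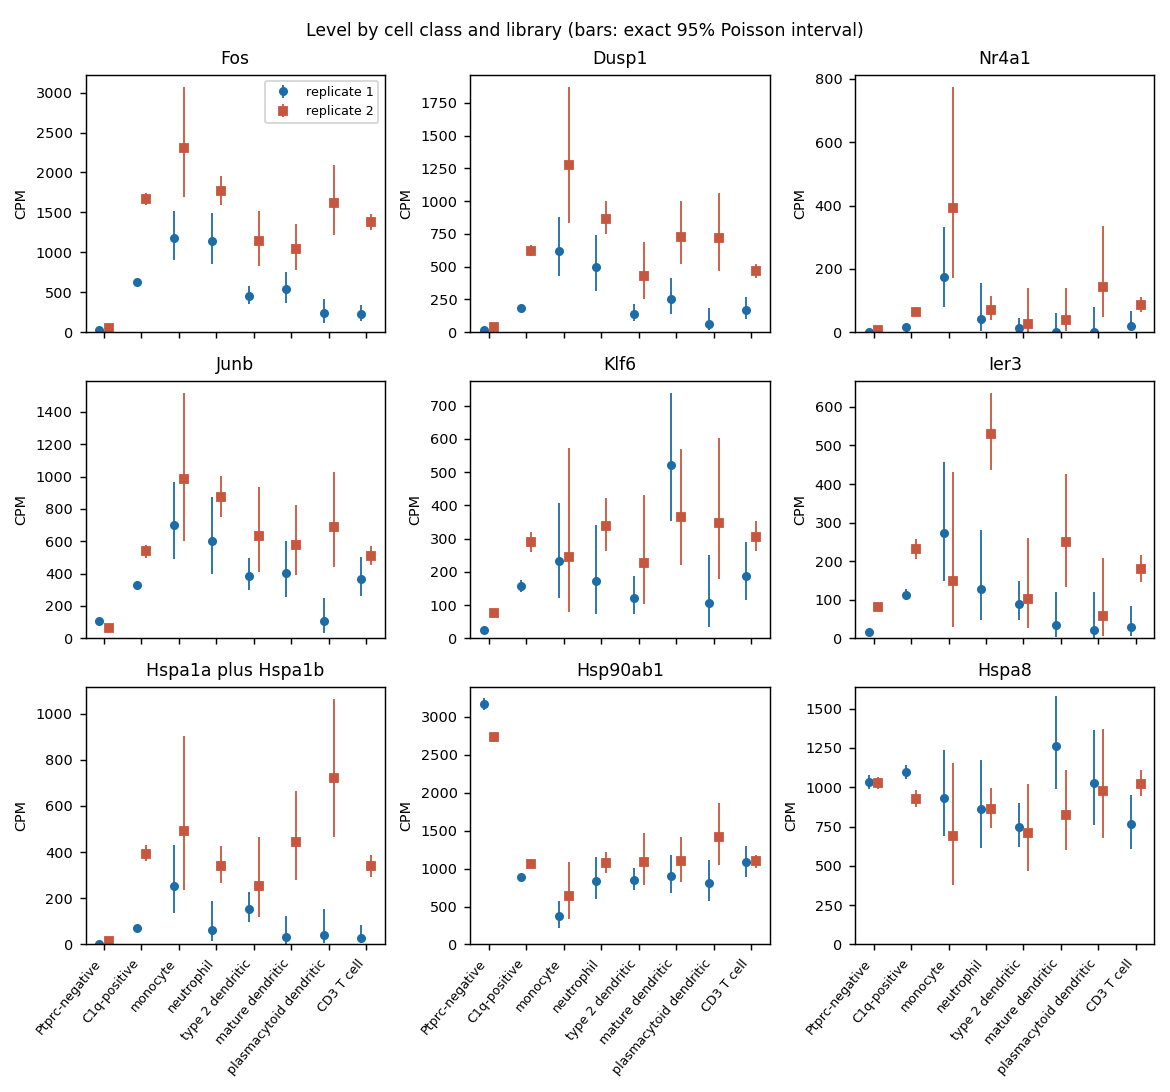
CPM of 8 genes and of the pair Hspa1a plus Hspa1b (panels) by cell class, circles for replicate 1 and squares for replicate 2, with exact 95% Poisson intervals. Replicate 2 lies above replicate 1 for Fos, Dusp1 and the pair in every class, while Hspa8 shows no such order and Hsp90ab1 is highest in Ptprc-negative cells.

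Some of the genes were higher in replicate 2 throughout the leukocyte classes. By CPM, Fos, Junb, Atf3, Nr4a1, Dusp1, Dusp2 and Btg2 and, of the heat shock genes, Hspa1a, Hspa1b, Hspa5 and Hsp90ab1 were higher in replicate 2 than in replicate 1 in all 7 leukocyte classes, 11 of the 36 genes, and none of the 36 was higher in replicate 1 in all 7. Among the 30 tested genes these were 10 and 0, beside 15.1% and 2.32% of all genes tested. TMM, which gives replicate 2 the larger factor in every class, left 6 of the 11 (Fos, Junb, Nr4a1, Dusp1, Dusp2 and Hspa1a) higher in replicate 2 in all 7 and put Hspa8 higher in replicate 1 in all 7. Among the 30 tested genes the counts were then 5 and 1, beside 5.96% and 9.41% of all genes tested. The classes of a library share its source animals, its handling and its free RNA, so they are not 7 separate observations. Xist and Y-linked RNA, given above, also differ between the libraries, so the sex of the animals and the library cannot be told apart. With 1 library on each side there is no test, and the ratios below are of CPM without TMM and carry intervals that cover counting error only.

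In C1q-positive cells Fos stood at 625 CPM in replicate 1 and 1668 CPM in replicate 2, a ratio of 2.67 (2.49 to 2.86). Dusp1 rose 3.32 times across the libraries (2.95 to 3.76), Nr4a1 4.33 times (2.85 to 6.74), Hspa1a 4.28 times (3.33 to 5.53) and Hspa1b 7.09 times (5.42 to 9.40). Hspa8 had a ratio of 0.846 (0.789 to 0.908), Hspe1 of 0.993 (0.894 to 1.10) and Ier2 of 1.13 (0.885 to 1.44). Of 25 early response genes with at least 30 UMIs over both libraries 11 were 2-fold or more higher in replicate 2, of 10 heat shock genes 2, and none was 2-fold higher in replicate 1. After TMM, 8 of the 25 and 2 of the 10 were 2-fold higher in replicate 2, beside 5.42% of all genes. Of all genes with as many UMIs, 9.14% were 2-fold higher in replicate 2 and 2.7% in replicate 1 without TMM, and their median log2 ratio was 0.23 beside 0.88 for the early response genes.

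Because C1q-positive cells fell into different clusters in the libraries, the 2 clusters with at least 20 such cells in each library were compared. In the cluster led by Fcrls (613 and 25 cells) Fos stood at 623 and 1022 CPM, Dusp1 at 182 and 332 CPM and Hspa1b at 30.9 and 204 CPM. In the cluster led by Mgl2 and Trem2 (439 and 69 cells) Fos stood at 589 and 1142 CPM, Dusp1 at 183 and 522 CPM and Hspa1b at 38.2 and 179 CPM. The Ly6i cluster of replicate 2 held Fos at 1718 CPM, Dusp1 at 640.0 CPM and Hspa1b at 225 CPM. Replicate 2 was higher for these 3 genes in both of the clusters compared. All 3 were already given above as higher in replicate 2 in C1q-positive cells, so this adds no separate support. The part of the clusters in the library ratios was not tested.

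In CD3 T cell-like cells, Fos had a ratio of 6.09 (4.07 to 9.56), Ier3 of 6.35 (2.12 to 31.3), Egr1 of 4.32 (1.63 to 16.2) and Hspa1b of 6.77 (2.26 to 33.3). Hsp90ab1 had a ratio of 1.01 (0.827 to 1.24) and Btg1 of 0.977 (0.769 to 1.26). Of 23 early response genes 12 were 2-fold or more higher in replicate 2, and of all genes 27.5% were, while 2.17% were 2-fold higher in replicate 1 and none of the early response genes was. After TMM these were 10 of 23 and 16.6% of all genes. C1q RNA in these cells also stood higher in replicate 2, as given above, and its part in the ratios was not tested.

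In Ptprc-negative cells early response genes lay beyond 2-fold in both directions. Their median log2 ratio was 1.22, beside 0.45 over all genes. Dusp5 stood at 0.995 CPM in replicate 1 and 34.5 CPM in replicate 2, a ratio of 34.7 (9.34 to 290.3, from 2 and 97 UMIs), Ier5 had a ratio of 8.15 (4.80 to 14.9) and Fosb of 6.49 (3.65 to 12.5). In the other direction Klf2 had a ratio of 0.111 (0.0596 to 0.191), Zfp36l1 of 0.320 (0.242 to 0.421) and Btg1 of 0.506 (0.452 to 0.566). Of 22 early response genes 12 were 2-fold or more higher in replicate 2 and 2 in replicate 1, beside 25.7% and 4.75% of all genes. After TMM 9 were higher in replicate 2 and 5 in replicate 1, beside 13.9% and 10.7% of all genes. Of 9 heat shock genes 1, Hspa1b, was 2-fold higher in replicate 2. The median mitochondrial share was 4.22% and 3.54% in Ptprc-negative and 3.31% and 3.60% in C1q-positive cells.

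**Figure D5:**
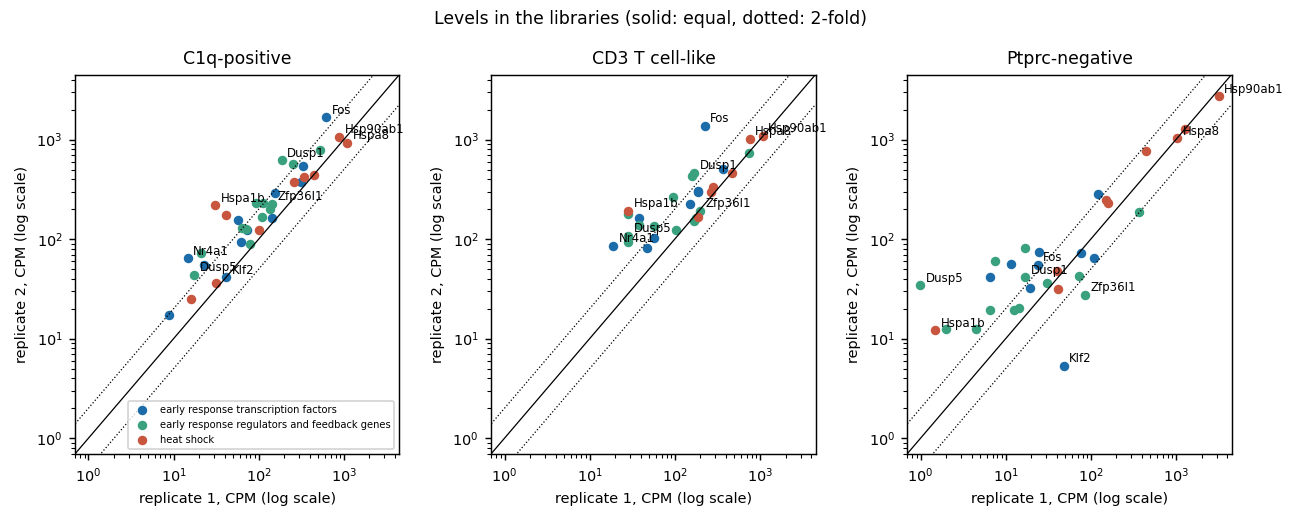
CPM in replicate 2 against CPM in replicate 1 (log axes) for each of the 36 genes with at least 30 UMIs in a class and a UMI in both libraries, in C1q-positive, CD3 T cell-like and Ptprc-negative cells. Points above the upper dotted line are at least 2-fold higher in replicate 2; in Ptprc-negative cells genes lie beyond both dotted lines.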

How the data were processed

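The deposited matrices hold whole-number UMI counts for each gene in each barcode. Build mm10, Cell Ranger 6.0.1 and Seurat 4.0.1 are listed, per the submitters' processing notes, and no annotation is given in the sources used. The authors' counts were used as deposited. Cells with 300 or more genes and under 10% mitochondrial UMIs were kept, and Scrublet doublets (10 and 36, or 0.419% and 1.27% of cells) were left out. Both libraries were clustered together in scanpy 1.11.5 with leidenalg 0.10.2 (2000 variable genes, 30 components, 15 neighbours, resolution 1), without the 36 genes and the wider list. A cluster that mixed macrophage and type 2 dendritic markers was clustered again (1000 variable genes, 20 components), a step chosen after seeing the data. Inside the clusters, C1q-positive cells needed a C1q UMI, CD3 T cell-like cells a Cd3 UMI, and Ptprc-negative cells 0 UMIs of Ptprc and Tyrobp.

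Within each library, UMIs were added up over the cells of a class, for 8 classes with 20 or more cells in each library. The 16 sums entered 1 fit in edgeR 4.0.16 (R 4.3.3; TMM, filterByExpr, quasi-likelihood, 7 residual degrees of freedom), with Benjamini-Hochberg adjustment over all genes tested and a threshold of 0.05. The library was a block, because classes of a library are cells of the same sample. Alternatives included DESeq2 1.42.0. The library ratios, and their TMM-scaled form, were chosen after seeing the data. The fit was tested on simulated data. The genes and lists were chosen with earlier results of these data known. Genes called in a comparison were named in order of size up to 10, along with the 3 most abundant of each group. UMIs are not scaled by gene length. Promoter windows came from RefSeq.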

Additional observations from a re-analysis of the deposited data

How the results depend on the processing

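Counts of called genes kept within 1.5 times of those reported under most alternatives, and no called gene changed direction under any. The number called between Ptprc-negative and leukocyte classes ran from 22 with cells thinned to 800 UMIs to 28 with DESeq2, clusters alone, the stricter cell filter or the 36 genes allowed among the clustering genes. The called genes were not all the same. Of the 27 calls, 24 held under the stricter filter, 25 with the 36 genes among the clustering genes and 23 with UMI gates. The genes tested changed too. Of all genes, 1116 of 1679 were called in the main fit and 887 of 1539 with cells thinned. Under the stricter filter 3187 of 8682 were called, and 2488 of 4630 with the 36 genes among the clustering genes. Without the replicate block, 13 genes were called between all classes in place of 24, 0 in place of 1 between leukocyte classes and 0 in place of 2 between monocyte-like and C1q-positive cells; it lowered no other count by over 1.5 times. The monocyte comparison also gave 1 without TMM, 1 with clusters alone, 0 with UMI gates alone and 0 with doublets kept. The leukocyte comparison gave 2 without TMM, 2 without the Ly6i cluster, 0 with cells thinned to 800 UMIs, 0 with the 36 genes among the clustering genes, 0 with doublets kept and 19 with UMI gates alone. With UMI gates alone the dendritic comparison gave 19 in place of 0. That gate for mature dendritic cells took 29 of its 55 and 40 of its 73 cells from Ptprc-negative clusters. The cause of the other changes was not tested. The ratio of early response sums per cell was 0.194 and 0.339 in the libraries alone, and that of heat shock sums 1.49 and 1.83. The stricter filter (500 genes, under 5% mitochondrial UMIs) and the restriction to cells without C1q UMIs left only Ptprc-negative, C1q-positive and CD3 T cell-like classes, and thinning left no monocyte-like class, so those comparisons gave no value there. Depth limits the small classes most: 1 UMI is worth 49.2 CPM in monocyte-like cells of replicate 2 and 0.356 CPM in Ptprc-negative cells of that library.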
